A study of Mus musculus with 15 samples.

Results

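The collagen genes described here are the 44 genes, among 57180 Ensembl gene identifiers in the count tables, whose mouse symbol is Col followed by a number, the letter a and a second number. A symbol was found for 51884 of the identifiers (90.7%). The chains were sorted by the structure they build. The connective tissue fibrillar class held 8 genes (Col1a1, Col1a2, Col3a1, Col5a1, Col5a2, Col5a3, Col24a1 and Col27a1). The cartilage class held 7 (Col2a1, Col9a1, Col9a2, Col9a3, Col10a1, Col11a1 and Col11a2), of which Col2a1, Col11a1 and Col11a2 also encode fibrillar chains. The basement membrane class held 8 (Col4a1 to Col4a6, Col15a1 and Col18a1). A further 11 form beaded filaments and other networks (Col6a1 to Col6a6, Col7a1, Col8a1, Col8a2, Col26a1 and Col28a1), 6 are fibril-associated (Col12a1, Col14a1, Col16a1, Col19a1, Col20a1 and Col22a1) and 4 span the cell membrane (Col13a1, Col17a1, Col23a1 and Col25a1).

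RNA-seq was performed on mouse brain stem tissue from the ventilatory control centers, with 3 libraries per genotype and 15 in all. The neonatal experiment compared mice without the AMPKα2 subunit of AMP-activated protein kinase, labelled AMPK-/-, with WT littermates, labelled AMPK+/+. The prenatal experiment compared WT embryos, labelled LMX1B+/+, with LMX1B+/- and LMX1B-/- embryos, which carry 1 or no working copy of the LIM homeobox transcription factor Lmx1b. The question was which genes depend on AMPK and on Lmx1b in the brainstem that controls breathing. The labels name no drug, and neither they nor the study's methods name a tissue-specific driver for the alleles. For breathing recordings made before tissue harvest, the methods describe metformin injections. Whether the sequenced mice were among those injected is not stated. The methods give the age of the mice used as postnatal days 1 to 5 without tying it to the sequenced tissue, and the embryos are described as prenatal. The name neonatal used here rests on that statement and on the title of the study. Nothing in the labels says that the 3 libraries of a genotype came from separate animals, so the p-values measure the spread between these libraries only. In bulk tissue, fewer cells of a collagen-producing type and less collagen RNA per cell cannot be told apart.

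Collagens are secreted or membrane-bound proteins whose chains wind into a triple helix in the endoplasmic reticulum, where prolines and lysines are hydroxylated, before the helices assemble outside the cell. Fibrillar collagens give tensile strength to connective tissue and cartilage, type IV chains form the sheet-like network of every basement membrane, and fibril-associated and beaded-filament collagens link these structures to each other and to cells. In the brain, most collagen lies in the basement membranes of blood vessels and in the meninges, while a few members, such as the transmembrane collagen Col25a1, are made by neurons.

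Promoter windows from RefSeq on the mouse build GRCm38.p6, 250 bases before to 50 bases after the annotated start, were found for 35 of the 44 genes, as 38 windows. The first set shown is that of Col4a1 and Col4a2, which encode the chains of the common type IV collagen and lie head to head, and whose levels are given together below. The second is that of Col11a1, Col11a2 and Col27a1, which were among the members that differed in the neonatal comparison. Capitals mark GC boxes (GGGCGG, or CCGCCC on the other strand) and CCAAT boxes (CCAAT, or ATTGG on the other strand), and each sequence runs 5′ to 3′ on the strand of its gene.
Col4a1 (chr8:11312777-11313076, minus strand): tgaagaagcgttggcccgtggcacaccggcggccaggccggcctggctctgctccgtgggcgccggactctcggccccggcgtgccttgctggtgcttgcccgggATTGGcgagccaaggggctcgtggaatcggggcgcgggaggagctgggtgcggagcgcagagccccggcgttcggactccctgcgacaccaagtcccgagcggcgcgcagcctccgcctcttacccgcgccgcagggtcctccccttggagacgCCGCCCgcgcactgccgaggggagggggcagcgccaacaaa
Col4a2 (chr8:11312555-11312854, plus strand): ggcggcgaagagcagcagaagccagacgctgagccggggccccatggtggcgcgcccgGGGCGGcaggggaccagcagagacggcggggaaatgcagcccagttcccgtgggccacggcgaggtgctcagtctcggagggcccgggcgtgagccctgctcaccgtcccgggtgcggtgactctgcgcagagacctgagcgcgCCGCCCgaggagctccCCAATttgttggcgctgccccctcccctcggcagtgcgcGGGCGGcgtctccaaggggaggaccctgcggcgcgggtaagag
Col11a1 (chr3:114030290-114030589, plus strand): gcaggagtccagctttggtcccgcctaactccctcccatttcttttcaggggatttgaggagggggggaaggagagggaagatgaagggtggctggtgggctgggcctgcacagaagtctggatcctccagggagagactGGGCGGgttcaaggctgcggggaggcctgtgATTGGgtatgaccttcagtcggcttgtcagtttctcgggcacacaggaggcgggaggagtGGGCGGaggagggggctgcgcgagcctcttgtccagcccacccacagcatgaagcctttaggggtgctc
Col11a2 (chr17:34038888-34039187, plus strand): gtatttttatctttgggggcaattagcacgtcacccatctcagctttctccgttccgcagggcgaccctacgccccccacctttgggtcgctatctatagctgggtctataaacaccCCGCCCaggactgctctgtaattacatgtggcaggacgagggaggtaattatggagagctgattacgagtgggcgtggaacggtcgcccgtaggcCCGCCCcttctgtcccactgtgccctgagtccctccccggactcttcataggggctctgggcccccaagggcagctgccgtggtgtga
Col27a1 (chr4:63215162-63215461, plus strand): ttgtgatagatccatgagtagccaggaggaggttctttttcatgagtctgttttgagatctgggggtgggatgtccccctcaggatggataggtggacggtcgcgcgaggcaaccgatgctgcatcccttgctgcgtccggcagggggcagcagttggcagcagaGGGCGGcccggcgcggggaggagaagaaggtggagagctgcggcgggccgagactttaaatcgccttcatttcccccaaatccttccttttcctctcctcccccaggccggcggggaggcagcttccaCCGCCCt
The windows of Col4a1 and Col4a2 shared 78 bases. Their annotated starts lay 21 bases apart on opposite strands, placed so that each gene runs across the start of the other. The starts of Col4a5 and Col4a6, another head-to-head pair, lay 1343 bases apart, and these genes run away from each other. A GC box was present in 23 of the 38 collagen windows (60.5%), against 35.7% of all 32851 promoter windows of that length. A CCAAT box was present in 13 (34.2%, against 37.4%) and a TATA box (TATAAA, or TTTATA on the other strand) in 5 (13.2%, against 13.6%). The 3 motifs were searched on both strands, and none contains another. These matches describe the letters of the windows and no binding was measured.

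The libraries differed in depth. Of the 6 neonatal libraries, WT 2 held 291212 counts and the library labelled AMPK-/- 3 held 335986, whereas the other 4 held 14975095 to 17384171. The prenatal libraries held 28833130 to 37441679. Levels are given as CPM, the count per 1000000 counts of the TMM-scaled library total. With 3 counts as the limit that a 0 allows, for counting error only, an undetected gene may be as high as 9.98 CPM in neonatal WT 2 and 9.07 CPM in AMPK-/- 3. The limit was 0.175 to 0.198 CPM in the other neonatal libraries and 0.0676 to 0.109 CPM in the prenatal ones. All collagens together held 93 and 70 counts in the 2 shallow libraries, and a single count there is worth 3.33 and 3.02 CPM. Prkaa2, which encodes AMPKα2, was at 19.9 ± 6.95 CPM (SD, n = 3) in the libraries labelled AMPK-/- against 26.1 ± 3.92 CPM for the WT littermates (log2 fold change −0.20, SE 0.23, edgeR adjusted p = 0.659). The groups overlapped, so each neonatal direction below is one between labels. Lmx1b was at 1.14 ± 0.303 CPM in LMX1B-/-, 18.9 ± 10.2 CPM in LMX1B+/- and 16.1 ± 6.39 CPM in prenatal WT, lower in LMX1B-/- than in WT (log2 fold change −3.82, SE 0.41, edgeR adjusted p = 0.00287), with LMX1B+/- and WT overlapping (log2 fold change 0.23, SE 0.33, edgeR adjusted p = 0.618). Its RNA was thus not lower in LMX1B+/-, and each direction below that involves LMX1B+/- is also one between labels. Markers of brainstem and hindbrain summed to 168 to 532 CPM over the 15 libraries. Single markers differed more. Tph2 held 2022 counts in AMPK-/- 1 and 42, 12 and 56 in WT 1, WT 3 and AMPK-/- 2. Hoxa5 held 189 counts in AMPK-/- 1 and 1198, 629 and 1086 in the same libraries. In LMX1B+/- 1 Hoxa5 held 9363 counts, against 1665 to 4458 in the other prenatal libraries. Whether the libraries hold the same part of the brainstem was not tested. Neonatal WT 3 stood apart in skeletal muscle markers, which summed to 1050.5 CPM there and 8.85 to 18.8 CPM in the other neonatal libraries. Mitochondrially encoded genes took 20.05 to 21.7% of counts in the libraries labelled AMPK-/- against 10.4 to 13.9% in neonatal WT, and 9.58 to 14.72% in LMX1B+/-, 7.23 to 7.98% in LMX1B-/- and 5.57 to 6.74% in prenatal WT.

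Collagens were a small part of the brainstem RNA. They took 0.0208 to 0.0595% of all counts in the neonatal libraries and 0.0491 to 0.118% in the prenatal libraries. Per kilobase of gene, the highest collagens in prenatal WT were the basement membrane chains Col4a1 (18.3 ± 4.87 CPM per kilobase, SD, n = 3) and Col4a2 (15.8 ± 4.42), followed by the connective tissue fibrillar chains Col3a1 (12.05 ± 1.86), Col1a1 (10.9 ± 2.79) and Col1a2 (8.97 ± 1.95), the cartilage chain Col9a2 (7.84 ± 0.296) and the microfibril chain Col6a1 (7.29 ± 1.08). The order was another in neonatal WT. There Col11a2, a fibrillar chain of cartilage, was highest (5.09 ± 2.36 CPM per kilobase), followed by Col1a2 (4.14 ± 1.94), Col4a2 (3.63 ± 0.752), the fibril-associated Col16a1 (3.34 ± 0.863) and the transmembrane Col23a1 (3.15 ± 0.784). The standard deviations of these 5 overlap, so their order among themselves is not resolved with 3 libraries.

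**Figure D1:**
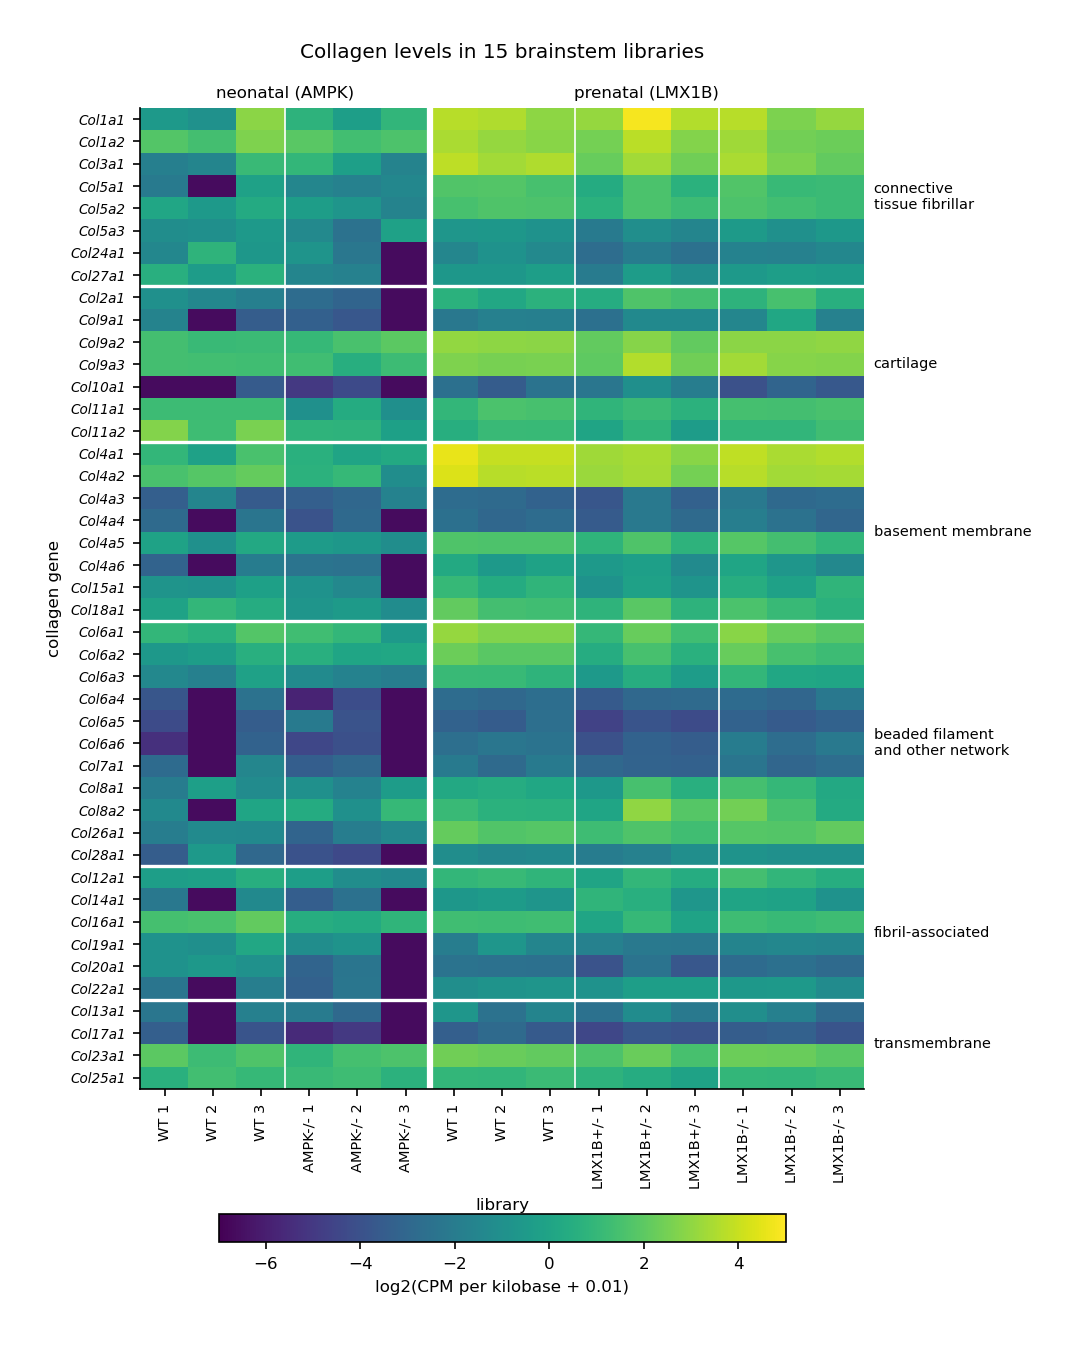
Level of the 44 collagens in each of the 15 libraries, as log2(CPM per kilobase + 0.01), one row per gene in the 6 classes and one column per library. The prenatal columns are brighter than the neonatal ones for the fibrillar, basement membrane and type VI rows, and the darkest cells are counts of 0, most of them in the shallow libraries WT 2 and AMPK-/- 3.

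Of the 44 genes, 36 had a higher WT mean per kilobase in the prenatal experiment and 8 in the neonatal experiment. All 3 prenatal WT libraries lay above all 3 neonatal WT libraries for 26 genes, and all 3 neonatal WT libraries lay above the prenatal ones for 3. The share over all genes was not computed, so these counts and the class counts below are not read as particular to collagens. The 26 include Col10a1, Col4a6, Col6a6, Col8a2, Col14a1 and Col22a1, which had 0 counts in the shallow neonatal WT 2. A 0 there allows up to 9.98 CPM, above all their prenatal WT values, so the order of these genes is not settled. The class counts below include them. The ratio of the prenatal to the neonatal WT mean was 12.8 for Col3a1, 10.7 for Col26a1, 9.64 for Col4a1, 8.58 for Col5a1 and 8.06 for Col4a6. The 3 genes on the other side were Col11a2, Col16a1 and Col20a1, with ratios of the neonatal to the prenatal mean of 2.66, 1.37 and 3.41. In the shallow WT 2 they held 5, 6 and 1 counts, so their order is not settled either. By class, the prenatal libraries were all above the neonatal ones for 5 of 8 connective tissue fibrillar genes, 4 of 7 cartilage genes, 6 of 8 basement membrane genes, 7 of 11 beaded filament and other network genes, 3 of 6 fibril-associated genes and 1 of 4 transmembrane genes. The tables were scaled separately and age and experiment cannot be told apart, so these levels are side by side and were not tested.

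**Figure D2:**
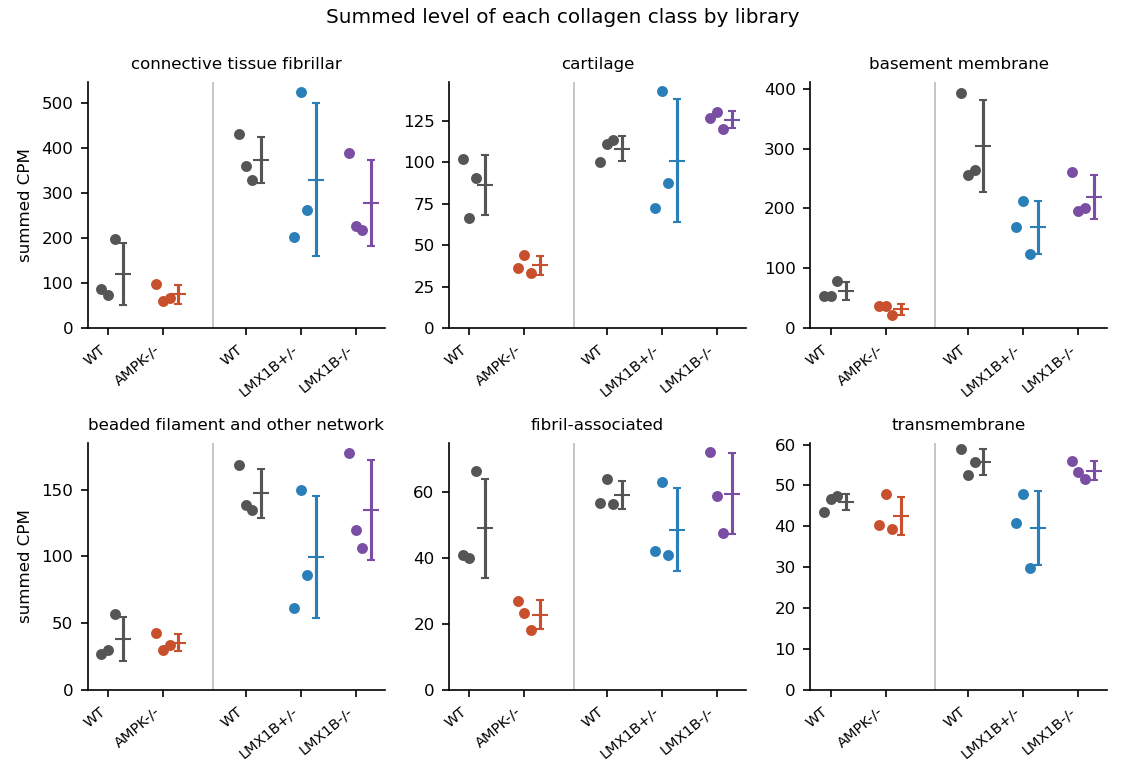
Summed CPM of each collagen class in each library (points), with the mean and SD of the 3 libraries of a genotype beside them, neonatal groups left of the grey line and prenatal groups right of it. The cartilage, basement membrane and fibril-associated sums of the libraries labelled AMPK-/- lie below those of neonatal WT, and the basement membrane sums of LMX1B+/- lie below those of prenatal WT.

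The summed level of each class followed the genotype in some classes and not in others. In the neonatal libraries, the cartilage collagens summed to 66.6 to 102 CPM in WT and 33.2 to 44.0 CPM in the libraries labelled AMPK-/-, the basement membrane collagens to 53.1 to 78.9 CPM and 21.2 to 37.5 CPM, and the fibril-associated collagens to 39.9 to 66.3 CPM and 18.1 to 26.8 CPM, with no overlap in these 3 classes. The connective tissue fibrillar class (73.2 to 199 CPM against 60.2 to 98.5 CPM), the beaded filament and other network class (26.7 to 56.7 CPM against 30.0 to 42.1 CPM) and the transmembrane class (43.6 to 47.3 CPM against 39.3 to 47.9 CPM) overlapped. In the prenatal libraries, the basement membrane class summed to 256 to 394 CPM in WT, 124 to 213 CPM in LMX1B+/- and 196 to 261 CPM in LMX1B-/-. The transmembrane class was at 52.6 to 58.9 CPM, 29.8 to 47.8 CPM and 51.5 to 56.0 CPM, in the same order. Both separated LMX1B+/- from WT, whereas the connective tissue fibrillar class (330.0 to 431 CPM, 203 to 525 CPM and 218 to 389 CPM) did not. The cartilage class was highest in LMX1B-/- by its mean (126 ± 5.16 CPM, against 108 ± 7.33 CPM in WT and 101 ± 37.2 CPM in LMX1B+/-), and all its LMX1B-/- libraries lay above all its WT libraries.

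Of the 44 collagens, 37 passed the filter on low counts in the neonatal experiment and were tested there. The 7 that did not were Col9a1, Col10a1, Col6a4, Col6a5, Col6a6, Col28a1 and Col17a1. Between the libraries labelled AMPK-/- and WT, 8.94% of all 17397 tested genes were called at an edgeR adjusted p under 0.05, 5.17% lower and 3.77% higher. Of the 37 collagens, 7 (18.9%) were called lower and 0 higher. The median collagen log2 fold change was −0.75, beside −0.0056 over all tested genes, and 29 were negative and 8 positive. The genotypes did not overlap for 9 collagens (24.3%), beside 26.6% of all tested genes, and an unadjusted p under 0.05 was found for 17 collagens, beside 24.6% of all tested genes. With library sizes alone in place of TMM, 1655 genes were called lower and 273 higher, against 900 and 655 with TMM, and 11 collagens were called lower and 0 higher.

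In the prenatal experiment all 44 collagens were tested, among 21729 genes. Between LMX1B+/- and WT, 36.7% of all tested genes were called, 17.3% lower and 19.4% higher. Of the collagens, 18 (40.9%) were lower and 2 (4.55%) higher, with a median log2 fold change of −0.51 beside −0.031 over all genes, 18 (40.9%) did not overlap, beside 45.3% of all genes, and 25 had an unadjusted p under 0.05, beside 46.1% of all genes. Between LMX1B-/- and WT, 0.0184% of all genes were called, which is 4 genes. Of the collagens 0 were called by edgeR and 0 by DESeq2, 5 had an unadjusted p under 0.05 (8.09% of all genes did), 5 (11.4%) did not overlap, beside 18% of all genes, and the median log2 fold change was −0.15 beside 0.010. Between LMX1B-/- and LMX1B+/-, 25.5% of all genes were called, 14% lower and 11.5% higher. Of the collagens, 10 (22.7%) were higher and 1 (2.27%) lower, with a median of 0.46 beside 0.022, and 15 (34.1%) did not overlap, beside 42.4% of all genes. An unadjusted p under 0.05 was found for 17 collagens there, beside 36.8% of all genes. With library sizes alone, LMX1B+/- against WT had 5816 genes lower and 2054 higher (3752 and 4225 with TMM), of them 24 collagens lower and 1 higher, and LMX1B-/- against LMX1B+/- had 1296 lower and 3737 higher (3044 and 2500 with TMM), of them 1 collagen lower and 17 higher. The 3 prenatal comparisons share libraries with each other, so their values are given side by side and are not independent of each other.

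**Figure D3:**
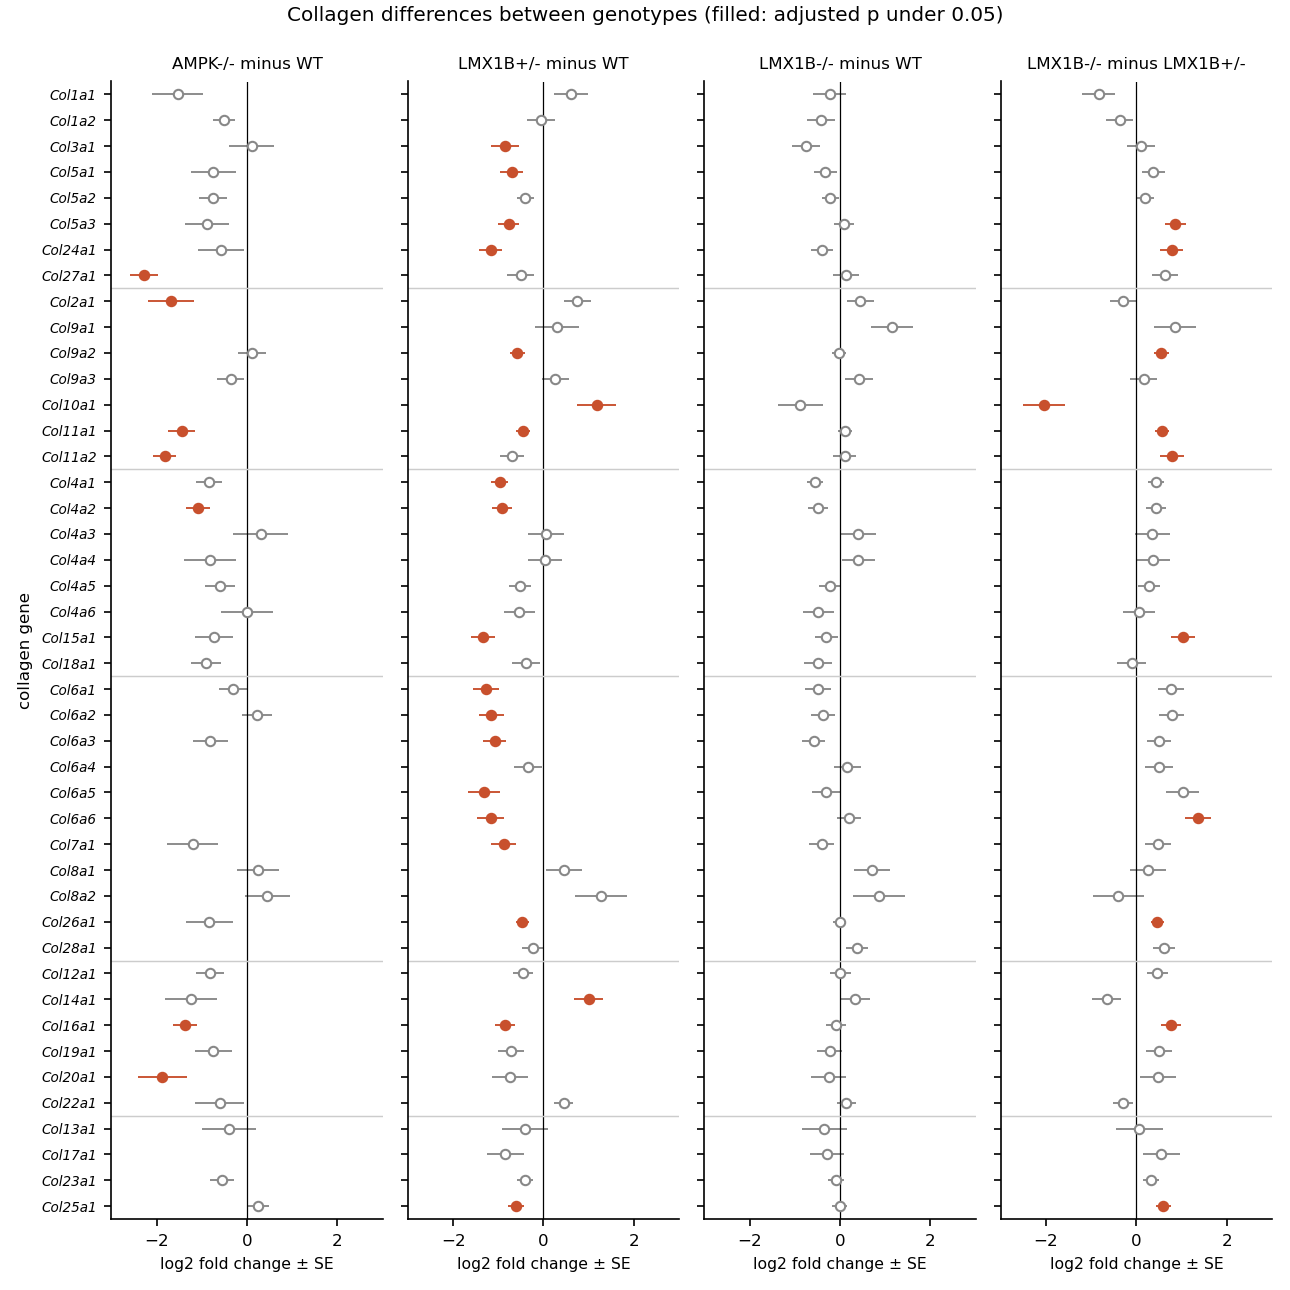
Log2 fold change of each collagen with its SE (bars) in the 4 comparisons, named first group minus second group above each panel, with the classes separated by grey lines. Filled points have an edgeR adjusted p under 0.05. In the AMPK panel the 7 filled points are all left of 0, in the LMX1B+/- panel 18 of 20 are, in the LMX1B-/- minus WT panel no point is filled, and in the last panel 10 of 11 are right of 0.

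Among the connective tissue fibrillar collagens, Col27a1 fell in the libraries labelled AMPK-/-. It encodes a fibrillar chain that is also made in cartilage. Its level was 19.4, 9.98 and 20.7 CPM in WT 1 to 3 and 4.29, 3.82 and 0 CPM in the libraries labelled AMPK-/- 1 to 3, from 295, 3 and 354 counts against 65, 59 and 0. Every WT library lay above every library labelled AMPK-/-, and the 0 in AMPK-/- 3 is within its limit of 9.07 CPM. The fit gave a 4.86-fold lower level (log2 fold change −2.28, SE 0.31, edgeR adjusted p = 0.000192). The call held without each of the 6 libraries in turn, with log2 fold changes of −2.38 to −2.16, and in the 4 deep libraries alone (−2.30, adjusted p = 0.0379), where only 6 of 18088 genes were called.

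The other connective tissue fibrillar chains were not called in the neonatal comparison. Col1a2, the second chain of type I collagen, was at 42.3, 33.3 and 78.9 CPM in WT 1 to 3 and 47.2, 32.1 and 39.3 CPM in the libraries labelled AMPK-/- 1 to 3. The groups overlapped (log2 fold change −0.52, SE 0.24, edgeR adjusted p = 0.190). Col1a1, the first chain of type I collagen, was at 4.41, 3.33 and 49.1 CPM in WT 1 to 3 and 10.97, 5.31 and 12.1 CPM in the libraries labelled AMPK-/- 1 to 3. A single library, WT 3, was high, and it is the library with the high skeletal muscle markers. The bone-forming cell markers Ibsp, Bglap and Bglap2 were at 41, 33 and 44 counts there and 0 to 3 in each other neonatal library. The part of these tissues in the Col1a1 level was not tested. With WT 3 the log2 fold change was −1.54 (SE 0.56, edgeR adjusted p = 0.0860) and without it 0.97 (adjusted p = 0.251), so the sign turned. Without WT 1 it was −2.24 (adjusted p = 2.52e-06). Col3a1, the chain of type III collagen of soft connective tissue, was at 2.70, 3.33 and 21.8 CPM in WT 1 to 3 and 18.6, 8.16 and 3.02 CPM in the libraries labelled AMPK-/- 1 to 3. WT 3 was again the highest WT library, and the groups overlapped (log2 fold change 0.10, SE 0.50, edgeR adjusted p = 0.933). With WT 3 left out Col3a1 was called higher (2.22 on the log2 scale, adjusted p = 0.00339), and with WT 1 left out its value was −0.59 (adjusted p = 0.244). Col5a1, Col5a2, Col5a3 and Col24a1 were at 0 to 13.3 CPM over the 6 libraries, and none was called.

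**Figure D4:**
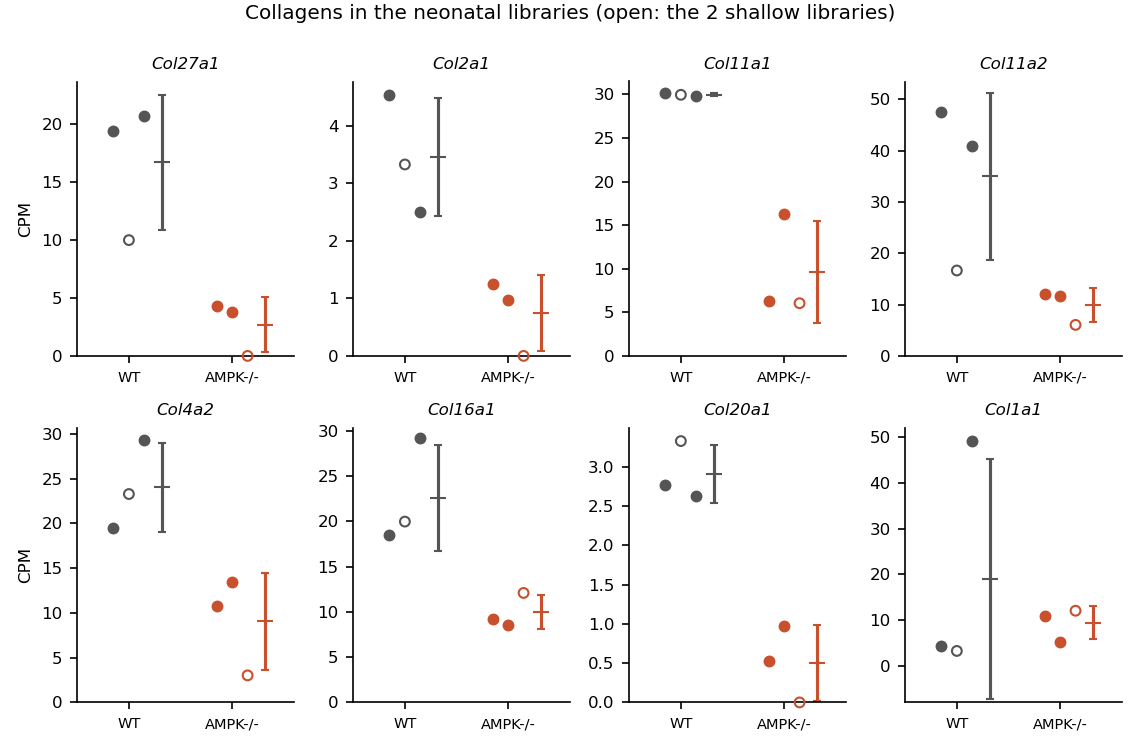
CPM of 8 collagens in the 6 neonatal libraries (points), with the mean and SD of each genotype label beside them. Open points are the shallow libraries WT 2 and AMPK-/- 3. The first 7 genes are those called lower in the libraries labelled AMPK-/-, with no overlap of the plotted values between labels, and Col1a1 is shown for its high value of 49.1 CPM in WT 3. For Col2a1 and Col20a1 the 0 in AMPK-/- 3 allows up to 9.07 CPM, above every WT value, so their separation is not settled. The open points of Col27a1, Col11a1, Col11a2, Col4a2 and Col16a1 rest on 0 to 9 counts, so counting error there is large too.

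In the embryos, the same class was led by type I and type III collagen. Col1a1 was at 86.0, 77.0 and 50.8 CPM in WT, 56.2, 189 and 81.0 CPM in LMX1B+/- and 86.1, 40.9 and 55.5 CPM in LMX1B-/-. LMX1B+/- 2 was the highest of all 9 libraries and the genotypes overlapped. Col1a2 was at 137, 108 and 89.3 CPM in WT, 69.1, 168 and 85.8 CPM in LMX1B+/- and 121, 66.9 and 62.1 CPM in LMX1B-/-, again highest in LMX1B+/- 2. Col3a1 was at 136, 99.9 and 118 CPM in WT, 46.0, 98.1 and 51.4 CPM in LMX1B+/- and 108, 60.9 and 42.5 CPM in LMX1B-/-. All 3 LMX1B+/- libraries lay below all 3 WT libraries, and Col3a1 fell in LMX1B+/- (log2 fold change −0.86, SE 0.31, edgeR adjusted p = 0.0450). This call was lost without LMX1B+/- 1, LMX1B+/- 3, WT 1, WT 2 or WT 3 (adjusted p up to 0.172), and DESeq2 gave an adjusted p of 0.120. Between LMX1B-/- and WT, Col3a1 had an unadjusted p of 0.0310 and an edgeR adjusted p of 0.587 (log2 fold change −0.75).

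Some minor fibrillar chains separated the genotypes further. Col24a1, a fibrillar collagen of developing bone and eye, was at 2.64, 4.02 and 2.88 CPM in WT, 1.09, 1.87 and 1.26 CPM in LMX1B+/- and 2.29, 2.20 and 2.76 CPM in LMX1B-/-. Each LMX1B+/- library was below each library of the other genotypes. Col24a1 fell in LMX1B+/- against WT (log2 fold change −1.17, SE 0.25, edgeR adjusted p = 0.00275), a call kept without each library, and was higher in LMX1B-/- than in LMX1B+/- (log2 fold change 0.78, SE 0.25, edgeR adjusted p = 0.0374), a call lost without LMX1B-/- 1, LMX1B-/- 2, LMX1B-/- 3, LMX1B+/- 1 or LMX1B+/- 3 (adjusted p up to 0.141). Col5a3, a type V chain, was at 4.15, 4.23 and 3.58 CPM in WT, 1.56, 3.13 and 2.28 CPM in LMX1B+/- and 4.88, 3.45 and 4.40 CPM in LMX1B-/-, lower in LMX1B+/- than in WT (log2 fold change −0.77, SE 0.24, edgeR adjusted p = 0.0218) and higher in LMX1B-/- than in LMX1B+/- (log2 fold change 0.86, SE 0.24, edgeR adjusted p = 0.0173). The first call was lost without LMX1B+/- 1, LMX1B+/- 3, WT 1 or WT 2 (adjusted p up to 0.0678) and the second lost without LMX1B-/- 1, LMX1B-/- 3, LMX1B+/- 1 or LMX1B+/- 3 (adjusted p up to 0.0766). Col5a1, a type V chain that sets fibril width, was at 24.4 to 29.4 CPM in WT and 11.2 to 26.0 CPM in LMX1B+/-. It was called lower in LMX1B+/- despite the overlap (log2 fold change −0.70, SE 0.26, edgeR adjusted p = 0.0471), and the call was lost without LMX1B+/- 1, LMX1B+/- 3, WT 1, WT 2 or WT 3 (adjusted p up to 0.181). Col1a1, Col1a2, Col5a2 and Col27a1 were not called in any prenatal comparison.

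Among the cartilage collagens, the chains of type XI and type II collagen fell in the libraries labelled AMPK-/-. Col11a2, a chain of the thin type XI fibrils around which type II fibrils form, was at 47.5, 16.6 and 40.8 CPM in WT 1 to 3 and 12.1, 11.6 and 6.04 CPM in the libraries labelled AMPK-/- 1 to 3, from 721, 5 and 699 counts against 183, 179 and 2. Every WT library was above every library labelled AMPK-/-. The level was 3.52-fold lower (log2 fold change −1.82, SE 0.25, edgeR adjusted p = 0.000273), a call kept without each library and in the 4 deep libraries alone (−1.89, adjusted p = 0.0394). Col11a1, its partner chain, was at 30.2, 29.9 and 29.8 CPM in WT 1 to 3 and 6.34, 16.3 and 6.04 CPM in the libraries labelled AMPK-/- 1 to 3, from 458, 9 and 511 counts against 96, 252 and 2. The 3 WT libraries lay close together and above all libraries labelled AMPK-/-, among which AMPK-/- 2 was the highest. Col11a1 was 2.73-fold lower (log2 fold change −1.45, SE 0.30, edgeR adjusted p = 0.00461), also without each library, although not in the 4 deep libraries alone (adjusted p = 0.146). Col2a1, the main fibrillar collagen of cartilage, was at 4.54, 3.33 and 2.51 CPM in WT 1 to 3 and 1.26, 0.972 and 0 CPM in the libraries labelled AMPK-/- 1 to 3, from 69, 1 and 43 counts against 19, 15 and 0. The 0 in AMPK-/- 3 allows up to 9.07 CPM, above every WT value. Col2a1 was low in all libraries and lower in those labelled AMPK-/- (log2 fold change −1.68, SE 0.50, edgeR adjusted p = 0.0374), and this call was lost without each of the 6 libraries in turn (adjusted p 0.0529 to 0.217).

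The type IX chains coat type II fibrils, and neither Col9a2 nor Col9a3 was called. Col9a2 was at 8.10, 6.66 and 6.89 CPM in WT 1 to 3 and 6.34, 9.13 and 12.1 CPM in the libraries labelled AMPK-/- 1 to 3, with the highest value in the shallow AMPK-/- 3, and Col9a3 was at 10.2, 9.98 and 9.51 CPM in WT 1 to 3 and 9.58, 5.57 and 9.07 CPM in the libraries labelled AMPK-/- 1 to 3. Both overlapped between the labels and neither was called. Col9a1 and Col10a1 were at 0 to 1.58 CPM in all 6 libraries and were not tested. Thus 3 of the 5 tested cartilage collagens (60%) were called lower, with a class median log2 fold change of −1.45, beside 5.17% of all tested genes and 10.2% of the longest genes described below.

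In the embryos, the cartilage collagens went in different directions. Col9a2 was at 25.3, 23.8 and 23.7 CPM in WT, 13.4, 21.9 and 13.4 CPM in LMX1B+/- and 23.2, 23.5 and 24.8 CPM in LMX1B-/-. WT and LMX1B-/- lay together at 23.2 to 25.3 CPM, and all LMX1B+/- libraries lay below them. Col9a2 fell in LMX1B+/- against WT (log2 fold change −0.58, SE 0.16, edgeR adjusted p = 0.0139), a call lost without LMX1B+/- 3 (adjusted p = 0.0673) and kept without each other library, and was higher in LMX1B-/- than in LMX1B+/- (log2 fold change 0.55, SE 0.16, edgeR adjusted p = 0.0246). Col11a1 was at 24.1, 38.0 and 35.6 CPM in WT, 22.5, 28.4 and 20.6 CPM in LMX1B+/- and 34.8, 34.0 and 36.7 CPM in LMX1B-/-, with WT 1 within the LMX1B+/- range. It fell in LMX1B+/- against WT (log2 fold change −0.45, SE 0.16, edgeR adjusted p = 0.0413) and was higher in LMX1B-/- than in LMX1B+/- (log2 fold change 0.56, SE 0.16, edgeR adjusted p = 0.0207). Col11a2 was at 9.85, 15.1 and 14.5 CPM in WT, 6.77, 12.4 and 5.28 CPM in LMX1B+/- and 12.6, 12.9 and 16.9 CPM in LMX1B-/- and was higher in LMX1B-/- than in LMX1B+/- (log2 fold change 0.80, SE 0.27, edgeR adjusted p = 0.0428). The Col9a2 and Col11a2 calls of LMX1B-/- against LMX1B+/- were lost without any single library but LMX1B+/- 2 (adjusted p up to 0.106 and 0.171), and that of Col11a1 was lost without LMX1B-/- 1, LMX1B-/- 3, LMX1B+/- 1 or LMX1B+/- 3 (adjusted p up to 0.0924). Against WT, that of Col11a1 was lost without LMX1B+/- 1, LMX1B+/- 3, WT 2 or WT 3 (adjusted p up to 0.160).

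Col10a1, the collagen of hypertrophic cartilage, was rare and went the other way. It was at 0.492, 0.242 and 0.541 CPM in WT, 0.615, 1.52 and 0.810 CPM in LMX1B+/- and 0.161, 0.327 and 0.212 CPM in LMX1B-/-. The LMX1B+/- libraries lay above those of both other genotypes. It was higher in LMX1B+/- than in WT (log2 fold change 1.18, SE 0.43, edgeR adjusted p = 0.0457), a call lost without LMX1B+/- 2, LMX1B+/- 3, WT 1, WT 2 or WT 3 (adjusted p up to 0.222) and missed by DESeq2 (adjusted p = 0.0607), and lower in LMX1B-/- than in LMX1B+/- (log2 fold change −2.05, SE 0.46, edgeR adjusted p = 0.00584), a call kept in all 6. Ibsp, the bone sialoprotein gene of the bone-forming cell list, moved with it. It was at 0.246, 0.520 and 0.225 CPM in WT, 2.93, 14.5 and 11.46 CPM in LMX1B+/- and 1.32, 0.743 and 1.46 CPM in LMX1B-/-, higher in LMX1B+/- than in WT (log2 fold change 4.90, SE 0.57, edgeR adjusted p = 3.72e-05) and lower in LMX1B-/- than in LMX1B+/- (log2 fold change −3.03, SE 0.48, edgeR adjusted p = 0.000629). The 9 bone-forming cell markers summed to 13.2 to 31.5 CPM in LMX1B+/-, 14.8 to 18.3 CPM in WT and 15.03 to 18.3 CPM in LMX1B-/-, and their part in the Col10a1 difference was not tested. Col9a3 was at 24.3, 22.1 and 22.8 CPM in WT, 15.6, 46.7 and 20.5 CPM in LMX1B+/- and 39.0, 27.5 and 26.2 CPM in LMX1B-/-, highest in LMX1B+/- 2, and Col2a1 spanned 10.4 to 30.1 CPM. Neither was called, nor was Col9a1, which was at 5.52 CPM in LMX1B-/- 2 and 0.796 to 2.00 CPM in the other 8 libraries and had an unadjusted p of 0.0270 between LMX1B-/- and WT (edgeR adjusted p = 0.578).

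Among the basement membrane collagens, the type IV chains Col4a1 and Col4a2 stood lower in the LMX1B+/- libraries. They form the heterotrimer found in nearly all basement membranes. Col4a1 was at 178, 115 and 116 CPM in WT, 73.5, 79.9 and 55.0 CPM in LMX1B+/- and 107, 82.2 and 91.2 CPM in LMX1B-/-. The 3 genotypes were ordered WT, LMX1B-/-, LMX1B+/- with no overlap between any pair. Col4a1 was 1.96-fold lower in LMX1B+/- than in WT (log2 fold change −0.97, SE 0.18, edgeR adjusted p = 0.00106). Against WT, LMX1B-/- had a log2 fold change of −0.54 (unadjusted p = 0.00907, edgeR adjusted p = 0.538), and against LMX1B+/- it had 0.43 (edgeR adjusted p = 0.0995). Col4a2 was at 138, 85.9 and 88.9 CPM in WT, 60.5, 68.2 and 36.6 CPM in LMX1B+/- and 87.0, 67.1 and 68.8 CPM in LMX1B-/-. WT 1 was the highest library for both chains, and the 3 LMX1B+/- libraries lay below the 3 WT libraries. Col4a2 fell in LMX1B+/- (log2 fold change −0.92, SE 0.22, edgeR adjusted p = 0.00539). Both calls held without each of the libraries in turn, with DESeq2 and with the trend with gene length removed.

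**Figure D5:**
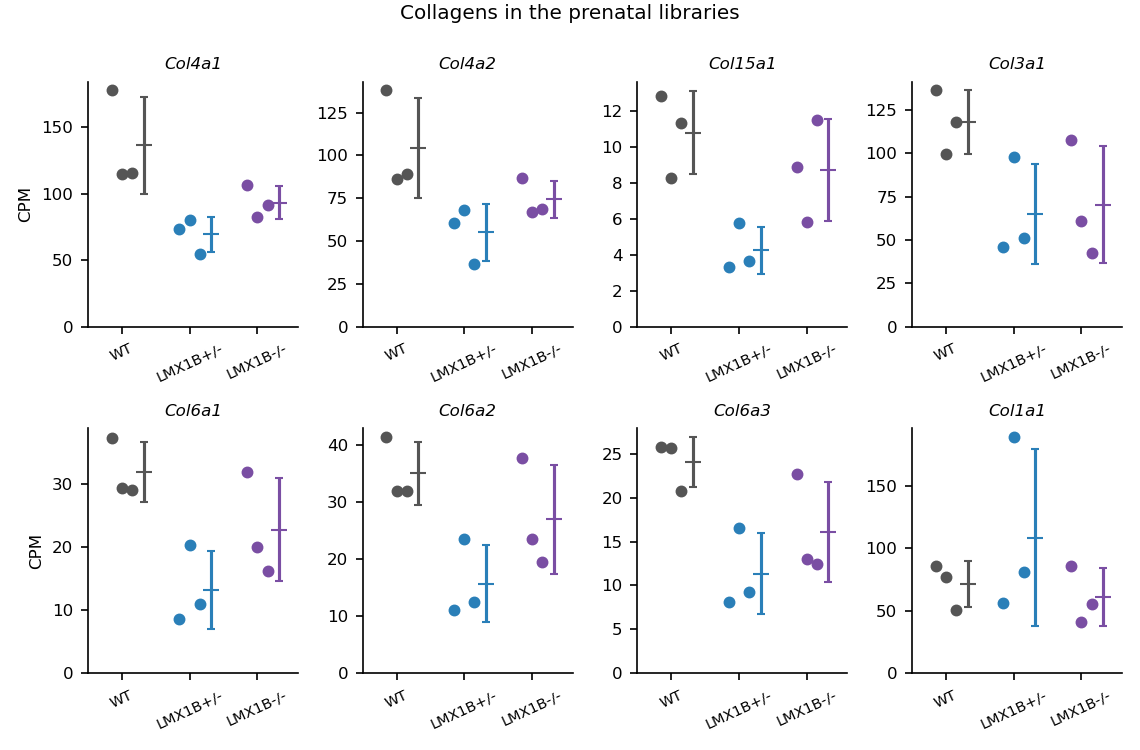
CPM of 8 collagens in the 9 prenatal libraries (points), with the mean and SD of each genotype beside them. For the first 7 genes, all LMX1B+/- libraries lie below all WT libraries, and the LMX1B-/- libraries lie between them or overlap at least one of the other genotypes, while Col1a1 is shown for its value of 189 CPM in LMX1B+/- 2.

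Col15a1, a collagen of the outer basement membrane zone, was at 12.8, 8.24 and 11.3 CPM in WT, 3.33, 5.74 and 3.66 CPM in LMX1B+/- and 8.85, 5.82 and 11.48 CPM in LMX1B-/-. All LMX1B+/- libraries lay below all others. It fell in LMX1B+/- against WT (log2 fold change −1.34, SE 0.26, edgeR adjusted p = 0.00161), without each library too, and was higher in LMX1B-/- than in LMX1B+/- (log2 fold change 1.04, SE 0.26, edgeR adjusted p = 0.0119), where the call was lost without LMX1B-/- 3 or LMX1B+/- 3 (adjusted p up to 0.0656). Col4a5, a chain of specialised basement membranes, was at 21.7, 21.2 and 20.9 CPM in WT, 11.7, 21.5 and 11.4 CPM in LMX1B+/- and 23.8, 17.999 and 12.5 CPM in LMX1B-/-. Its head-to-head partner Col4a6 was at 9.57, 5.26 and 7.53 CPM in WT, 5.501, 6.71 and 3.21 CPM in LMX1B+/- and 8.30, 4.90 and 2.94 CPM in LMX1B-/-. Both overlapped between genotypes and neither was called. Col4a3 and Col4a4, which lie head to head too, encode the chains that join Col4a5 in the kidney glomerulus. Col4a3 was at 1.37, 1.28 and 0.969 CPM in WT, 0.615, 2.16 and 0.930 CPM in LMX1B+/- and 2.13, 1.25 and 1.38 CPM in LMX1B-/-, and Col4a4 at 1.65, 1.25 and 1.46 CPM in WT, 0.796, 2.29 and 1.35 CPM in LMX1B+/- and 2.81, 1.81 and 1.19 CPM in LMX1B-/-. Col18a1, the source of endostatin, was at 11.2 to 30.5 CPM. None of these 3 was called in a prenatal comparison.

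In the neonatal libraries, Col4a2 was at 19.5, 23.3 and 29.4 CPM in WT 1 to 3 and 10.8, 13.4 and 3.02 CPM in the libraries labelled AMPK-/- 1 to 3, from 296, 7 and 503 counts against 163, 207 and 1. The labels did not overlap and Col4a2 was lower in the libraries labelled AMPK-/- (log2 fold change −1.08, SE 0.27, edgeR adjusted p = 0.0155). The call was lost without AMPK-/- 1, AMPK-/- 3 or WT 3 (adjusted p up to 0.161), and DESeq2 gave an adjusted p of 0.0629. Col4a1 was at 14.1, 6.66 and 21.7 CPM in WT 1 to 3 and 11.4, 7.51 and 9.07 CPM in the libraries labelled AMPK-/- 1 to 3, with overlap (log2 fold change −0.84, SE 0.30, edgeR adjusted p = 0.0762). Col18a1 was at 6.58, 13.3 and 9.51 CPM in WT 1 to 3 and 4.10, 4.99 and 3.02 CPM in the libraries labelled AMPK-/- 1 to 3 and did not overlap (log2 fold change −0.91, SE 0.34, edgeR adjusted p = 0.0949). Both were called without WT 1 (adjusted p = 0.0151 and 0.0400), and neither in any other fit without a single library. Col4a5 was at 6.32, 3.33 and 7.996 CPM in WT against 5.02, 4.28 and 3.02 CPM in the libraries labelled AMPK-/-, and its partner Col4a6 at 0.790, 0 and 1.98 CPM in WT against 1.45, 1.36 and 0 CPM in the libraries labelled AMPK-/-. Col4a3 was at 0.856, 3.33 and 0.759 CPM in WT against 0.859, 1.17 and 3.02 CPM in the libraries labelled AMPK-/-, and its partner Col4a4 at 1.38, 0 and 1.98 CPM in WT against 0.595, 1.30 and 0 CPM in the libraries labelled AMPK-/-. These values of 3.02 and 3.33 CPM are single counts in the shallow libraries. Col15a1 was at 0 to 5.60 CPM, and none of the 5 was called.

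Markers of the cells that line vessels were read beside these values. In the prenatal libraries, the 10 endothelial markers summed to 161 to 208 CPM in WT, 116 to 146 CPM in LMX1B+/- and 128 to 142 CPM in LMX1B-/-, so both other genotypes lay below WT. Of them 3 were called lower and 1 higher in LMX1B+/- against WT, and 0 between LMX1B-/- and WT, where 7 had an unadjusted p under 0.05. The 10 mural cell markers summed to 261 to 297 CPM, 219 to 267 CPM and 255 to 281 CPM, with 3 of the 9 tested called lower and 2 higher in LMX1B+/- against WT. In the neonatal libraries, the endothelial markers summed to 73.2 to 142 CPM in WT and 84.7 to 148 CPM in the libraries labelled AMPK-/-, and 0 of 10 were called. The part of these cells in the collagen differences was not tested.

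Type VI collagen, which forms beaded microfibrils next to basement membranes, fell in the prenatal comparison of LMX1B+/- with WT, with 5 of its 6 chain genes called lower, beside 17.3% of all tested genes and 35.1% of the longest genes described below. Col6a1 was at 37.4, 29.3 and 29.0 CPM in WT, 8.58, 20.3 and 10.9 CPM in LMX1B+/- and 31.9, 20.05 and 16.3 CPM in LMX1B-/-. LMX1B+/- 2 was the highest of its group and still lay below every WT library. Col6a1 was 2.40-fold lower (log2 fold change −1.26, SE 0.29, edgeR adjusted p = 0.00410). Col6a2 was at 41.4, 31.9 and 31.95 CPM in WT, 11.1, 23.5 and 12.5 CPM in LMX1B+/- and 37.9, 23.6 and 19.6 CPM in LMX1B-/-, again with LMX1B+/- 2 the highest of its group, and fell in LMX1B+/- (log2 fold change −1.15, SE 0.27, edgeR adjusted p = 0.00522). Col6a3, the longest of the main chains, was at 25.8, 25.6 and 20.8 CPM in WT, 8.11, 16.6 and 9.30 CPM in LMX1B+/- and 22.7, 13.1 and 12.5 CPM in LMX1B-/- and fell too (log2 fold change −1.08, SE 0.26, edgeR adjusted p = 0.00617). All 3 calls held without each library in turn. LMX1B-/- overlapped WT in all 3 genes and none of them was called between LMX1B-/- and WT or LMX1B+/-, although without LMX1B+/- 2 all 3 were called higher in LMX1B-/- than in LMX1B+/-, by 1.17, 1.14 and 0.83 on the log2 scale.

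Of the minor type VI chains, Col6a6 was at 1.41, 1.77 and 1.62 CPM in WT, 0.470, 0.903 and 0.750 CPM in LMX1B+/- and 2.26, 1.31 and 1.96 CPM in LMX1B-/-. Its LMX1B+/- libraries lay below all others. It fell in LMX1B+/- against WT (log2 fold change −1.16, SE 0.30, edgeR adjusted p = 0.00813) and was higher in LMX1B-/- than in LMX1B+/- (log2 fold change 1.37, SE 0.29, edgeR adjusted p = 0.00465), and both calls held without each library. Col6a5 was at 0.914, 0.727 and 1.42 CPM in WT, 0.290, 0.548 and 0.390 CPM in LMX1B+/- and 0.904, 0.713 and 0.901 CPM in LMX1B-/- and fell in LMX1B+/- (log2 fold change −1.33, SE 0.35, edgeR adjusted p = 0.0105), a call lost only without WT 3 among the fits without a single library (adjusted p = 0.0683). Col6a4, at 0.615 to 1.80 CPM, was not called. Col7a1, which forms the anchoring fibrils of skin, was at 1.32 to 2.32 CPM in WT and 0.960 to 1.23 CPM in LMX1B+/-. It fell as well (log2 fold change −0.88, SE 0.28, edgeR adjusted p = 0.0269), a call lost without LMX1B+/- 2, LMX1B+/- 3, WT 1 or WT 3 (adjusted p up to 0.102).

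Col26a1, a collagen first described in testis and ovary, was at 37.0, 27.4 and 29.0 CPM in WT, 19.98, 26.6 and 20.6 CPM in LMX1B+/- and 29.6, 28.2 and 34.9 CPM in LMX1B-/-. The LMX1B+/- libraries lay below all others by a small margin. It fell in LMX1B+/- against WT (log2 fold change −0.47, SE 0.15, edgeR adjusted p = 0.0218) and was higher in LMX1B-/- than in LMX1B+/- (log2 fold change 0.46, SE 0.15, edgeR adjusted p = 0.0327). The first call was lost without LMX1B+/- 1, LMX1B+/- 3 or WT 1 (adjusted p up to 0.109) and the second lost without LMX1B-/- 1, LMX1B-/- 3, LMX1B+/- 1 or LMX1B+/- 3 (adjusted p up to 0.148). Col8a2, a short-chain collagen of the basement membrane of the cornea, was at 9.81, 7.03 and 6.83 CPM in WT, 4.63, 36.0 and 16.0 CPM in LMX1B+/- and 24.7, 12.9 and 5.59 CPM in LMX1B-/-. It was high in 4 libraries, LMX1B+/- 2, LMX1B-/- 1, LMX1B+/- 3 and LMX1B-/- 2, and these are also the 4 libraries with the highest sums of the 10 choroid plexus markers (1713, 1345, 982 and 755 CPM, against 88.9 to 391 CPM in the other 5). Col8a2 was not called in any comparison of all libraries, and it was called higher in LMX1B+/- than in WT without LMX1B+/- 1 (log2 fold change 1.71, adjusted p = 0.00984). The part of choroid plexus in its level was not tested.

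In the neonatal libraries, Col6a1 was at 8.36, 6.66 and 15.3 CPM in WT 1 to 3 and 11.03, 8.49 and 3.02 CPM in the libraries labelled AMPK-/- 1 to 3 and Col6a2 at 5.33, 6.66 and 12.4 CPM in WT 1 to 3 and 12.1, 8.49 and 9.07 CPM in the libraries labelled AMPK-/- 1 to 3, both with overlap. Col8a2 was at 1.78, 0 and 4.67 CPM in WT 1 to 3 and 5.75, 2.20 and 9.07 CPM in the libraries labelled AMPK-/- 1 to 3, and the library at 9.07 CPM is the shallow one. The choroid plexus markers summed to 15.5 to 19.96 CPM in WT and 40.9 to 157 CPM in the libraries labelled AMPK-/-, with 2 of the 6 tested called higher. Of the 7 tested genes of this class, 0 were called, and the class median log2 fold change was −0.30.

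The fibril-associated collagens held a further pair of neonatal calls. Col16a1, which lies at the surface of small fibrils and near basement membranes, was at 18.5, 19.97 and 29.2 CPM in WT 1 to 3 and 9.18, 8.55 and 12.1 CPM in the libraries labelled AMPK-/- 1 to 3, from 281, 6 and 501 counts against 139, 132 and 4. The labels did not overlap. It was 2.59-fold lower in the libraries labelled AMPK-/- (log2 fold change −1.37, SE 0.27, edgeR adjusted p = 0.00338), also without each library in turn, and not in the 4 deep libraries alone (adjusted p = 0.123). Col20a1 was at 2.77, 3.33 and 2.63 CPM in WT 1 to 3 and 0.529, 0.972 and 0 CPM in the libraries labelled AMPK-/- 1 to 3, from 42, 1 and 45 counts against 8, 15 and 0, and was lower in the libraries labelled AMPK-/- (log2 fold change −1.87, SE 0.54, edgeR adjusted p = 0.0315), a call lost without AMPK-/- 1, AMPK-/- 3, WT 1, WT 2 or WT 3 (adjusted p up to 0.247). Its 0 in AMPK-/- 3 allows up to 9.07 CPM, above every WT value. Col12a1, a collagen of tendon and other dense tissue, was at 12.6, 13.3 and 21.5 CPM in WT 1 to 3 and 12.5, 6.93 and 6.04 CPM in the libraries labelled AMPK-/- 1 to 3, and its labels did not overlap (log2 fold change −0.82, SE 0.30, edgeR adjusted p = 0.0915). It was called without WT 1 (adjusted p = 0.0104) and without AMPK-/- 1 (adjusted p = 0.0315). Col19a1, which some neurons make, was at 3.69, 3.33 and 7.70 CPM in WT 1 to 3 and 3.11, 3.82 and 0 CPM in the libraries labelled AMPK-/- 1 to 3, with overlap, and was not called.

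Prenatally, Col16a1 was at 16.6, 16.0 and 16.7 CPM in WT, 6.95, 13.8 and 6.57 CPM in LMX1B+/- and 16.4, 14.3 and 16.0 CPM in LMX1B-/-. WT and LMX1B-/- lay at 14.3 to 16.7 CPM, above all LMX1B+/- libraries, of which LMX1B+/- 2 was the nearest. Col16a1 fell in LMX1B+/- against WT (log2 fold change −0.85, SE 0.22, edgeR adjusted p = 0.00910), without each library too, and was higher in LMX1B-/- than in LMX1B+/- (log2 fold change 0.77, SE 0.22, edgeR adjusted p = 0.0219), a call lost without LMX1B-/- 1, LMX1B-/- 3, LMX1B+/- 1 or LMX1B+/- 3 (adjusted p up to 0.0981). Col14a1, a collagen that regulates fibril growth in embryonic connective tissue, was at 4.40, 5.26 and 4.06 CPM in WT, 12.7, 10.4 and 4.32 CPM in LMX1B+/- and 7.01, 6.53 and 3.79 CPM in LMX1B-/-. LMX1B+/- 1 and 2 were above all other libraries and LMX1B+/- 3 lay among WT. It was called higher in LMX1B+/- than in WT (log2 fold change 1.00, SE 0.33, edgeR adjusted p = 0.0293), the call was lost without LMX1B+/- 1, LMX1B+/- 2, WT 1 or WT 3 (adjusted p up to 0.119), and DESeq2 gave an adjusted p of 0.0539. Col12a1 was at 28.7, 32.5 and 27.2 CPM in WT, 15.1, 28.8 and 20.6 CPM in LMX1B+/- and 39.9, 28.3 and 20.9 CPM in LMX1B-/-, with overlap, and was not called.

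Of the transmembrane collagens, Col25a1 was the one with calls. It is made by neurons and has a part in the contact of motor axons with muscle. It was at 25.3, 24.04 and 29.0 CPM in WT, 21.7, 17.6 and 12.3 CPM in LMX1B+/- and 25.2, 23.998 and 28.8 CPM in LMX1B-/- in the prenatal libraries. Each LMX1B+/- library lay below each library of the other genotypes. It fell in LMX1B+/- against WT (log2 fold change −0.60, SE 0.17, edgeR adjusted p = 0.0143) and was higher in LMX1B-/- than in LMX1B+/- (log2 fold change 0.60, SE 0.17, edgeR adjusted p = 0.0214). The first call was lost only without WT 3 among the fits without a single library (adjusted p = 0.0659), the second was lost without LMX1B-/- 3, LMX1B+/- 2 or LMX1B+/- 3 (adjusted p up to 0.0881), and neither was made with the length trend described below removed. Col23a1 was at 30.3, 27.0 and 24.8 CPM in WT, 18.1, 27.7 and 16.2 CPM in LMX1B+/- and 28.1, 27.5 and 21.7 CPM in LMX1B-/- and Col13a1 at 2.85, 0.797 and 1.51 CPM in WT, 0.760, 2.06 and 1.02 CPM in LMX1B+/- and 2.16, 1.31 and 0.610 CPM in LMX1B-/-, both with overlap and without a call. In the neonatal libraries, Col25a1 was at 19.9, 33.3 and 27.0 CPM in WT 1 to 3 and 28.7, 31.6 and 21.2 CPM in the libraries labelled AMPK-/- 1 to 3, Col23a1 at 22.3, 13.3 and 18.6 CPM in WT 1 to 3 and 10.4, 15.6 and 18.1 CPM in the libraries labelled AMPK-/- 1 to 3 and Col13a1 at 0.922, 0 and 1.34 CPM in WT 1 to 3 and 1.12, 0.583 and 0 CPM in the libraries labelled AMPK-/- 1 to 3. None of the 3 was called, and Col23a1 had a log2 fold change of −0.56 (edgeR adjusted p = 0.190).

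A single prenatal library weighed on these counts. LMX1B+/- 2 held 1142 CPM of collagens in all, against 588 and 631 CPM in the other LMX1B+/- libraries. Without it, 25 collagens were called lower and 0 higher between LMX1B+/- and WT, and 19 were called higher and 1 lower between LMX1B-/- and LMX1B+/-. Without LMX1B+/- 1, the first comparison had 14 lower and 6 higher. Without LMX1B+/- 3 or WT 3 it had 12 calls in each case. In the second comparison the number of calls was 4 without LMX1B-/- 1, LMX1B-/- 3 or LMX1B+/- 3, and 5 without LMX1B+/- 1. The calls kept in every such fit were 9 of 20 in the first comparison (Col24a1, Col4a1, Col4a2, Col15a1, Col6a1, Col6a2, Col6a3, Col6a6 and Col16a1) and 2 of 11 in the second (Col10a1 and Col6a6). In the neonatal comparison, 4 of 7 calls were kept in every fit (Col27a1, Col11a1, Col11a2 and Col16a1). There, 11 collagens were called lower without WT 1, 4 lower without AMPK-/- 3 and, with 1 higher, 4 lower without WT 3. DESeq2 called 3 of the 7 (Col11a1, Col11a2 and Col16a1) and gave no adjusted p for Col27a1, Col2a1 and Col20a1.

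Collagen genes are long, and the differences between genotypes moved with gene length over all genes. The lengths implied by the deposited RPKM ran from 3095 bases (Col9a2) to 15228 bases (Col12a1), with a median of 7542.5, and 31 of the 37 and 38 of the 44 tested collagens belonged to the longest class when all tested genes were split into 3 classes by length. In that class, 10.2% of all genes were called lower in the libraries labelled AMPK-/- (median log2 fold change −0.20), against 0.828% in the shortest class (0.30). In LMX1B+/- against WT, 35.1% of the longest class were lower (−0.24) and 3.58% of the shortest (0.34). In LMX1B-/- against LMX1B+/-, 25.1% of the longest class were higher (0.21). After a smooth trend with length was removed from each library, an alternative chosen after seeing the data, 5 of the neonatal calls were left and the median collagen log2 fold change was −0.51. Col2a1 (adjusted p = 0.0841) and Col20a1 (0.0572) were not called. Between LMX1B+/- and WT, 14 collagens were called, 11 lower and 3 higher, with a median of −0.30. Of the 20 calls made without this step, 12 were kept. The calls of Col3a1, Col5a1, Col5a3, Col10a1, Col11a1, Col7a1, Col26a1 and Col25a1 were lost (edgeR adjusted p 0.0537 to 0.541). Between LMX1B-/- and LMX1B+/-, 4 were called, 3 higher and 1 lower. These were Col9a2, Col15a1, Col6a6 and Col10a1. The share of mitochondrial counts given above also differed between these genotypes, and its part in the differences was not tested.

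Markers of cells other than the vascular ones above were read in the same way. In the neonatal libraries, the 15 meningeal and fibroblast markers summed to 95.8 to 190.2 CPM in WT and 229.8 to 432 CPM in the libraries labelled AMPK-/-. Of the 14 tested, 7 were called higher and 0 lower, among them Dcn, Ogn and Mgp, whereas the type I and type III collagens that such cells make were not called. The 12 cartilage cell markers summed to 56.7 to 76.5 CPM in WT and 27.2 to 46.7 CPM in the libraries labelled AMPK-/-, next to the lower Col2a1, Col11a1 and Col11a2. Most of this sum came from Acan and Hapln1, which brain cells also make in perineuronal matrix. Acan was at 17.4, 26.6 and 27.3 CPM in WT 1 to 3 and 11.1, 10.8 and 6.04 CPM in the libraries labelled AMPK-/- 1 to 3 (log2 fold change −1.10, SE 0.26, edgeR adjusted p = 0.0125), and 5 of the 12 markers passed the filter. The 7 that did not (Matn1, Matn3, Comp, Cnmd, Snorc, Epyc and Cytl1) were at 0 to 2.39 CPM in WT and 0 to 5.81 CPM in the libraries labelled AMPK-/-, and the highest, Cytl1, was at 0.395, 0 and 0.642 CPM in WT 1 to 3 and 5.81, 0.583 and 0 CPM in the libraries labelled AMPK-/- 1 to 3. The 9 bone-forming cell markers summed to 30.2 to 43.3 CPM in neonatal WT and 6.04 to 29.2 CPM in the libraries labelled AMPK-/-, with 0 of the 4 tested called by edgeR (0 with an unadjusted p under 0.05). Most of this sum came from Alpl and Dmp1, which were not confined to 1 library. Ibsp, Bglap and Bglap2 held 41, 33 and 44 counts in WT 3 and 0 to 3 counts in each other neonatal library. In the prenatal libraries, the cartilage markers summed to 9.46 to 15.7 CPM in WT, 6.15 to 13.5 CPM in LMX1B+/- and 11.9 to 20.6 CPM in LMX1B-/-. The meningeal and fibroblast markers summed to 284 to 314 CPM, 185 to 262 CPM and 215 to 334 CPM, and 5 of 15 were called lower and 1 higher in LMX1B+/- against WT.

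Markers of neural and other cells also differed between the groups. The 10 oligodendrocyte markers summed to 290.1 to 345 CPM in prenatal WT, 200.3 to 264 CPM in LMX1B+/- and 358 to 366 CPM in LMX1B-/-. LMX1B+/- lay below both other genotypes, with 7 of 10 called lower and 1 higher against WT (median log2 fold change −0.55), and 7 of 10 were called higher in LMX1B-/- than in LMX1B+/- (0.52). The 10 astrocyte and radial glia markers had 4 called lower and 1 higher in LMX1B+/- against WT, and 4 higher and 2 lower in LMX1B-/- against LMX1B+/-. In the opposite direction, 5 of the 10 brainstem and hindbrain markers were called higher and 1 lower in LMX1B+/- against WT (median 0.65), and 3 were lower and 1 higher in LMX1B-/- against LMX1B+/- (−0.69). Of the 10 neuron markers, 3 were called higher and 3 lower in LMX1B+/- against WT. Skeletal muscle markers had 3 of 12 called higher and 1 lower there, and 4 lower in LMX1B-/- against LMX1B+/-. Endothelial markers had 3 of 10 called lower and 1 higher in LMX1B+/- against WT. The choroid plexus, microglia, Schwann cell, inner ear, bone-forming and cartilage lists had at most 2 calls in either direction in each of these comparisons. Beside these stand 17.3% lower and 19.4% higher over all genes in the first comparison and 14% lower and 11.5% higher in the second. Against WT, LMX1B-/- had 1 marker called by edgeR, Tph2 of the hindbrain list, which was lower. The library LMX1B-/- 2 stood apart in inner ear markers. Tecta held 525 counts there and 22 to 41 in the other prenatal libraries, and Tectb held 128 against 2 to 12. Epyc of the cartilage list held 118 against 5 to 18. Col9a1 was also highest in LMX1B-/- 2, with 186 counts against 22 to 66. The part of inner ear tissue in the Col9a1 level was not tested. In the neonatal comparison, the 10 neuron markers summed to 4235 to 4719 CPM in WT and 5385 to 5588 CPM in the libraries labelled AMPK-/-, with 5 called higher and 1 lower (median 0.47). The 10 oligodendrocyte markers summed to 14225 to 24612 CPM in WT and 18316 to 23267 CPM in the libraries labelled AMPK-/-, far above the prenatal sums given above. How these sums bear on the age of the tissue was not tested. The 7 tested skeletal muscle markers were all called lower, next to the high sum of WT 3. The hindbrain and the mural markers had 2 called higher and 1 lower each, the inner ear list had its single tested gene higher, and the oligodendrocyte, astrocyte, microglia and Schwann cell lists had 0 calls by edgeR (1, 1, 0 and 2 with an unadjusted p under 0.05), beside 5.17% lower and 3.77% higher over all genes. The part of these cells in the collagen differences was not tested.

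The genes that act on collagens were read from 5 lists: 23 that fold and modify the chains (22 matched), 14 that cleave propeptides or cross-link, 11 receptors, 9 that break collagen down or block its breakdown, and 14 other basement membrane proteins. In the neonatal comparison, 6 genes of these lists were called lower and 0 higher. The folding list had 1 of 22, Colgalt1, a galactosyltransferase for collagen hydroxylysine (14.8 ± 2.87 CPM in the libraries labelled AMPK-/- against 27.8 ± 2.47 CPM for WT, log2 fold change −0.77, SE 0.23, edgeR adjusted p = 0.0378). The receptor list had 1 of 9, the discoidin domain receptor Ddr1 (log2 fold change −0.85, SE 0.21, edgeR adjusted p = 0.0126). The other basement membrane proteins had 2 of 14, Agrn (log2 fold change −1.04, SE 0.21, edgeR adjusted p = 0.00425) and the laminin chain gene Lama5 (log2 fold change −1.24, SE 0.34, edgeR adjusted p = 0.0244). The cleavage and cross-linking list had 2 of 12, the procollagen C-proteinase Bmp1 (log2 fold change −1.004, SE 0.26, edgeR adjusted p = 0.0183) and Pxdn, which cross-links type IV collagen (log2 fold change −0.86, SE 0.24, edgeR adjusted p = 0.0260). The breakdown list had 0 of 7 (0 with an unadjusted p under 0.05). Of these 6 calls, only that of Agrn held without each library in turn. Over all tested genes, 5.17% were called lower, and 10.2% in the longest class described above.

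Between LMX1B+/- and WT, the other basement membrane proteins had 8 of 14 called lower and 0 higher. Beside the counts of these lists stand 17.3% lower and 19.4% higher over all tested genes, and 35.1% lower in the longest class described above. The lengths of the list genes were not compared. Among the 8 were Lamc1, which encodes the γ1 laminin chain (39.8 ± 5.18 CPM against 66.3 ± 5.499 CPM, log2 fold change −0.74, SE 0.12, edgeR adjusted p = 0.000574), Lama3 (log2 fold change −0.91, SE 0.16, edgeR adjusted p = 0.000948) and Agrn (log2 fold change −0.60, SE 0.14, edgeR adjusted p = 0.00439). The cleavage and cross-linking list had 5 of 14 lower, led by Pxdn (68.0 ± 8.47 CPM against 109 ± 2.44 CPM, log2 fold change −0.68, SE 0.11, edgeR adjusted p = 0.000315) and the procollagen N-proteinases Adamts3 (log2 fold change −0.83, SE 0.16, edgeR adjusted p = 0.00145) and Adamts2 (log2 fold change −1.03, SE 0.22, edgeR adjusted p = 0.00252). The receptors had 4 of 10 lower, led by Adgrg1, a receptor for type III collagen on neural progenitors (log2 fold change −0.52, SE 0.11, edgeR adjusted p = 0.00218), the α1 integrin gene Itga1 (log2 fold change −0.60, SE 0.16, edgeR adjusted p = 0.00934) and Ddr2 (log2 fold change −0.89, SE 0.23, edgeR adjusted p = 0.00979). The folding list was mixed, with 3 of 22 higher, among them the chaperones Ppib (log2 fold change 0.37, SE 0.09, edgeR adjusted p = 0.00558) and P4hb (log2 fold change 0.37, SE 0.10, edgeR adjusted p = 0.00947), and 5 lower, among them Colgalt1 (log2 fold change −0.40, SE 0.11, edgeR adjusted p = 0.0101). Of the 7 tested breakdown genes, 2 were lower and 2 higher, among them Timp2, an inhibitor of matrix metalloproteinases, which was lower (log2 fold change −0.84, SE 0.12, edgeR adjusted p = 0.000148), and Timp1, another such inhibitor, which was higher (log2 fold change 0.86, SE 0.31, edgeR adjusted p = 0.0409). Of the 15 calls that are the first 3 of each list by p, 13 held without each library in turn, and those of Timp3 and Timp1 did not.

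Between LMX1B-/- and LMX1B+/-, 9 genes of these lists were called higher and 2 lower, near or below the shares over all tested genes (11.5% higher and 14% lower). The higher ones were 4 of the cleavage list, led by Pxdn (log2 fold change 0.50, SE 0.11, edgeR adjusted p = 0.00412) with Adamts3 and Adamts2, then Agrn and Lamc1, Adgrg1 (log2 fold change 0.50, SE 0.11, edgeR adjusted p = 0.00471), Timp2 (log2 fold change 0.74, SE 0.12, edgeR adjusted p = 0.000657) and Timp3. The calls of Pxdn, Adamts3, Adamts2, Adgrg1 and Timp2 held without each library in turn. The lower ones were Ppib (log2 fold change −0.32, SE 0.09, edgeR adjusted p = 0.0171) and Mmp9, a gelatinase (log2 fold change −0.57, SE 0.18, edgeR adjusted p = 0.0316). Between LMX1B-/- and WT, 0 genes of the 5 lists were called by edgeR, and 4 had an unadjusted p under 0.05.

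The ratio of partner chains was compared per kilobase, as a description. In the prenatal libraries, Col4a1 to Col4a2 lay between 1.04 and 1.33 and Col6a1 to Col6a2 between 1.46 and 1.75. Col1a1 to Col1a2 was more spread, at 1.08 to 1.35 in WT, 1.54 to 2.13 in LMX1B+/- and 1.16 to 1.69 in LMX1B-/-, with every LMX1B+/- library above every WT library. The ratio of Col4a5 to Col4a6 ranged from 2.51 to 5.06 and that of Col4a3 to Col4a4 from 0.704 to 1.23. In the 4 deep neonatal libraries, Col4a1 to Col4a2 lay between 0.497 and 0.936 and Col1a1 to Col1a2 at 0.197, 0.440 and 0.314 in WT 1, AMPK-/- 1 and AMPK-/- 2 against 1.18 in WT 3. Col11a1 to Col11a2 was below 1 in all 6 neonatal libraries (0.283 to 0.971) and above 1 in all 9 prenatal libraries (1.17 to 2.11). These ratios rest on gene lengths and carry no test.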

How the data were processed

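RNA-seq libraries of brain stem tissue were described by the submitters' processing notes as aligned with HISAT2 to the mouse build GRCm39. The study's methods place the alignment within systemPipeR, after TRIzol extraction and a directional library kit with molecular indexes. The counter, the annotation and any use of the indexes or of strand are not given in the sources used here. The authors deposited a table of counts per gene for each experiment, in which the values are raw and whole, and a table of RPKM, from which only the gene length behind each value was taken. In the neonatal tables the column of WT 3 carries a suffix that no label explains, and in the prenatal tables the column of WT 3 carries the number 4, as its library name does. The tables held 0 columns of other samples. No pair of libraries was identical.

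Counts of each experiment were fitted apart in R 4.3.3 with edgeR 4.0.16 (filterByExpr, TMM, genotype as the only factor, all 3 genotypes of the prenatal experiment in a single fit, quasi-likelihood F-test, two-sided), and p-values were adjusted over all tested genes by the Benjamini-Hochberg method. Genes with an adjusted p under 0.05 are said to be called. Fold changes come from the fit. Figures were drawn with Python 3.11.15 and matplotlib 3.10.9. The fit was tested on simulated data. The alternatives were DESeq2 1.42.0, RLE scaling, library sizes without TMM, other filters, only the 6 libraries compared, a 2-fold minimum, each library left out in turn, the 2 shallow libraries left out and the replicate number as a block. Removal of a lowess trend with gene length (span 0.3) was added after seeing the data.

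The labels number the libraries alike in each genotype. The correlation of deviations from the group means between same-numbered libraries was 0.164, 0.368 and 0.117 for LMX1B-/- and WT. Each of these libraries correlated best with its own number. The values given for LMX1B-/- against WT still come from the fit with genotype as the only factor, which leaves such a pairing out. With the replicate number as a block, 0 collagens were called there, as in the fit without it. In the other comparisons the correlation was −0.35 to 0.0204, and not every library correlated best with its own number. These values do not settle whether same-numbered libraries share an origin.

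The collagens, their classes and the other gene lists were chosen with earlier results of these data known. Values in every library are given for the 3 members of each class with the highest RPKM in an experiment, for up to 10 called members per comparison and for head-to-head gene pairs, and up to 3 called genes per other list are named by smallest p. Ctage5 of the folding list was not matched. Promoter sequences are from RefSeq on GRCm38.p6 and carry the coordinates of that build, while no coordinates of GRCm39 are used.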

Additional observations from a re-analysis of the deposited data

How the results depend on the processing

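In the neonatal comparison, the 7 collagen calls became 3 with DESeq2, 11 with library sizes alone (the 7 and 4 more) and 2 without the shallow libraries, while a minimum of 10 counts in every library left 1 collagen to test and 0 calls. Leaving out 1 library gave 4 to 11 collagen calls (4 without AMPK-/- 3, 11 without WT 1). The 1555 calls over all genes became 667 with DESeq2, 825 with 10 counts in every library, 6 without the shallow libraries, 604 with a 2-fold minimum and 548 to 2958 without 1 library. Col1a1 turned positive without WT 3 (0.97) and with the replicate block (0.33), and Col3a1 turned negative with library sizes alone (−0.10), without AMPK-/- 1 (−0.59) and without WT 1 (−0.59). Without 1 library, Col1a1 lay between −2.24 and 0.97 and Col3a1 between −0.59 and 2.22. The cause was not tested.

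For LMX1B+/- against WT, the 20 collagen calls became 33 when every gene with a count was tested, 8 with a 2-fold minimum (1770 of 7977 over all genes) and 12 to 25 without 1 library. For LMX1B-/- against WT, all-gene testing gave 9 collagen calls, and the 4 calls over all genes became 35 with DESeq2, 19 with library sizes alone, 329 with all-gene testing, 13 with only the 6 libraries compared and 3 to 11 without 1 library (11 without LMX1B-/- 2, 10 without WT 2). For LMX1B-/- against LMX1B+/-, the 11 collagen calls became 18 with library sizes alone, 23 with all-gene testing, 4 with the length trend removed, 3 with a 2-fold minimum and 4 to 20 without 1 library, and the 5544 over all genes became 3637 with the length trend removed, 955 with a 2-fold minimum and 3500 to 6054 without 1 library (3500 without LMX1B-/- 3, 3602 without LMX1B-/- 1). The cause was not tested.

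Library sizes alone shifted the median log2 fold change of all genes to −0.18 in the neonatal comparison, −0.27 for LMX1B+/- against WT and 0.22 for LMX1B-/- against LMX1B+/-. The share of calls that were higher moved from 42.1 to 14.2%, from 53.0 to 26.1% and from 45.1 to 74.2%, and for LMX1B-/- against WT from 0 to 31.6%. Under it Ppib and P4hb, called higher in LMX1B+/-, were not called. With the replicate block, collagen calls were 7 in the neonatal comparison, 21, 0 and 10 in the prenatal comparisons in the order above, and 1350, 7243, 5 and 4720 over all genes. The block gave Col3a1 as higher in the libraries labelled AMPK-/- (1.43, adjusted p = 0.0116), and Col2a1 was not called (adjusted p = 0.0656). Outside LMX1B-/- against WT, not every library correlated best with its own number, and a call lost there is not read as a smaller effect. For single collagens and the named list genes, the alternatives kept direction and side of the threshold in 223 of the neonatal values, lost the call in 56, gained it in 16 and turned the sign in 5. The corresponding counts were 462, 75, 21 and 0 for LMX1B+/- against WT and 286, 72, 18 and 0 for LMX1B-/- against LMX1B+/-. Depth limits the neonatal comparison, where 1 library of each label holds 93 and 70 collagen counts.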
